A study of Mus musculus with 7 samples.

Results

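The 44 genes described here are cell cycle genes whose products act in S phase, when DNA is copied, and in M phase, when the copies are separated. They are 44 of the 32285 genes in the count files. All 44 were matched to an Ensembl identifier by symbol, and all 44 passed the filter on low counts that left 17155 genes for testing. The list was proposed with the results of this comparison in view, so its members were selected on the expression difference between Gent+Fos OE and Gent. Their differences are given below as a description, with no test. The libraries came from utricles of wild-type mice at postnatal day 2 (P2), the utricle being a vestibular organ of the inner ear. The organs were cultured as serum-free explants and damaged with 2 mM gentamicin, an aminoglycoside that kills hair cells, for 24 h. They were collected at day 5 post-injury, and 12 utricles were pooled per library. The 4 Gent+Fos OE libraries also received an AAV-PHP.eB vector in which the CMV promoter drives mouse Fos, kept on the explants for 48 h. The 3 Gent libraries are labelled with gentamicin alone. The names under which their counts were deposited also hold letters that can stand for shRNA, and the study made a Fos shRNA vector and an EGFP control vector beside the Fos vector. Whether the Gent libraries received no virus, a control virus or another one is not settled by the labels, so that effects of vector, of Fos and of what the Gent group received cannot be told apart. Pools of 12 organs average animals, and nothing in the labels says whether pools of 1 group came from separate litters or cultures, so the errors measure the spread between pools.

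Cells commit to division in G1 when cyclin-dependent kinases inactivate the retinoblastoma proteins and E2F factors switch on the genes for DNA synthesis. The Mcm helicase is loaded onto replication origins and opened by Cdc45 and the GINS complex, PCNA clamps the polymerases to DNA, and ribonucleotide reductase and thymidylate synthase supply the nucleotides. Mitotic genes are switched on later, in G2, by FoxM1 and the B-Myb-MuvB complex, and their products build the spindle, attach it to centromeres and split the cell. In the newborn mouse utricle, supporting cells can still divide after damage, whereas hair cells are postmitotic. RNA from a whole organ holds many cell types, so fewer cycling cells and less of these RNAs per cycling cell cannot be told apart.

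Library totals ran from 27879889 to 34335214 counts, and a member had between 141 and 4460 raw counts in a library. Levels are given as CPM, a gene's share of the library's reads scaled to a common total, normalized with TMM factors, a scale on which 1 gene is compared between libraries. In the Gent+Fos OE libraries Fos, the gene carried by the vector, was at 151, 151, 167 and 149 CPM, and in Gent at 39.5, 40.6 and 34.6 CPM. The groups did not overlap in Fos, so the counts matched the label of the Fos vector. What the Gent libraries received is not settled by these values. 1 of the libraries stood apart on a property that touches the results below. In Gent replicate 2, long genes had lower counts relative to short genes, with a Spearman's rho of -0.50 between gene length and the deviation from the mean of all libraries, whereas rho ran from -0.22 to 0.33 in the other 6 libraries.

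The promoters are shown before the values because replication and mitotic genes are known to be driven through different short elements. E2F factors bind a core written here as GCGGGAA or GCGCGAA or GCGCCAA, and the mitotic genes carry a CHR element (TTTGAA) bound by the MuvB complex, often beside a CCAAT box bound by NF-Y. RefSeq windows on GRCm38.p6 (the build that mm10 names), from 250 bases before to 50 bases after each start, were found for 36 of the 44 members and gave 39 windows. Both strands were searched, and the CCAAT box can overlap the E2F core GCGCCAA. All 11 windows of the mitotic genes held a CCAAT box, 8 of the 11 held a CHR and 1 of the 11 an E2F core. Of the 10 windows of the replication genes, 9 held a CCAAT box, 6 an E2F core and 1 a CHR. Over all 32851 windows in the table, 37.4% held a CCAAT box, 17.9% a CHR and 8.07% an E2F core. The AP-1 site TGANTCA, the element that Fos-Jun dimers bind, was in 0 of the 39 member windows and in 7.81% of all windows. These are matches of letters in a short window and do not say where any factor was bound. The 150 bases before the start are printed for the members of each kind on which the results turn. Every E2F core, CHR and CCAAT box within these bases is in capitals. The counts above are of the whole windows, so some counted elements lie outside the printed bases. Ccnb2 and Plk1 show no CHR in print, but their windows held a CHR outside the printed bases. The window of Mcm5 likewise held E2F cores that are not printed in full. The replication genes are Mcm5 and Mcm6, the Mcm genes with the largest differences, and Rrm1, the longest:
Mcm5, chr8:75109359-75109508, strand plus: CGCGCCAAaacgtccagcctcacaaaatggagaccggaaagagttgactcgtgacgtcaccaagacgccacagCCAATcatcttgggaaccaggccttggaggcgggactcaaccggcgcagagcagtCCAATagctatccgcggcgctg
Mcm6, chr1:128359706-128359855, strand minus: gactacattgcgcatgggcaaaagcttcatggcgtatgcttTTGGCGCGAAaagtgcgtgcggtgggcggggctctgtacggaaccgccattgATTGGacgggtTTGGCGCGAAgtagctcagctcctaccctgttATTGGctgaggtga
Rrm1, chr7:102441545-102441694, strand plus: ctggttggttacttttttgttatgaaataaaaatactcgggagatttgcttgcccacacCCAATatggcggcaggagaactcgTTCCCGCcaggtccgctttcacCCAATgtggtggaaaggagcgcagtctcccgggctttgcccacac

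The mitotic genes are Ccnb2, Plk1 and Ccnb1, which lie among those with the largest differences, and Kif11, which lies among those with small ones. Cdk1 and Ube2c are the members of the remaining mitosis class with the largest differences, and Prc1 is the only member that was not lower in Gent+Fos OE. Prc1 has the CCAAT box and CHR in the same order as Kif11 and Ube2c:
Ccnb2, chr9:70421555-70421704, strand minus: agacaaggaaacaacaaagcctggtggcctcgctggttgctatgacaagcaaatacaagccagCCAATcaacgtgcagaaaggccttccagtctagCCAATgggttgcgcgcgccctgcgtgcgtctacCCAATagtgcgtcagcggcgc
Plk1, chr7:122159285-122159434, strand plus: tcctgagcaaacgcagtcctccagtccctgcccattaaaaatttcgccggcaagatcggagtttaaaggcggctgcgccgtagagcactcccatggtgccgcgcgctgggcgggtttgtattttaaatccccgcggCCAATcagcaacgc
Ccnb1, chr13:100786487-100786636, strand minus: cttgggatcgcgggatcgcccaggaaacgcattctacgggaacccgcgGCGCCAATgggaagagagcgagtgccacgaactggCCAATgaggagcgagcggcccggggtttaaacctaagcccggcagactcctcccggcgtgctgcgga
Kif11, chr19:37376232-37376381, strand plus: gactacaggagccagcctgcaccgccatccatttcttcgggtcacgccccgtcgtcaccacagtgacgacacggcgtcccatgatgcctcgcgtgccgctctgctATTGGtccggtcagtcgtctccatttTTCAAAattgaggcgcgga
Cdk1, chr10:69352913-69353062, strand minus: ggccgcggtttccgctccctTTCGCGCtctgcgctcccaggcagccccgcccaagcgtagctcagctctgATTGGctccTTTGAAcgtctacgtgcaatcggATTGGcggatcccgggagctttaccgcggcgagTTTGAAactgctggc
Ube2c, chr2:164769779-164769928, strand plus: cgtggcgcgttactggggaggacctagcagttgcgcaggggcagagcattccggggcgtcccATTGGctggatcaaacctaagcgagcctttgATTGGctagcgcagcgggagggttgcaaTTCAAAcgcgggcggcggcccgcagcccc
Prc1, chr7:80294326-80294475, strand plus: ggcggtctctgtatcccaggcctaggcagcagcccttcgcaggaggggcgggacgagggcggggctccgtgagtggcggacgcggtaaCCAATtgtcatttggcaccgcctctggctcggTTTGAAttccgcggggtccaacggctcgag

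The fitted difference of Gent+Fos OE from Gent was below 0 in 43 of the 44 members, whereas 50.1% of all tested genes had a fitted difference below 0. The median log2 fold change of the 44 members was -0.48, beside 0.00 over all tested genes. That median corresponds to a level 1.39 times as high in Gent as in Gent+Fos OE. No single member passed the limits of the edgeR test (adjusted p under 0.01 and absolute log2 fold change over 0.25), which called 0.414% of all genes, 71 in number. In 27 of the 44 members every Gent+Fos OE library was below every Gent library, a pattern that 12.2% of all tested genes showed. Since the list was selected on this contrast, nothing is read from these counts. The standard errors of the members ran from 0.11 to 0.28 on the log2 scale.

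**Figure D1:**
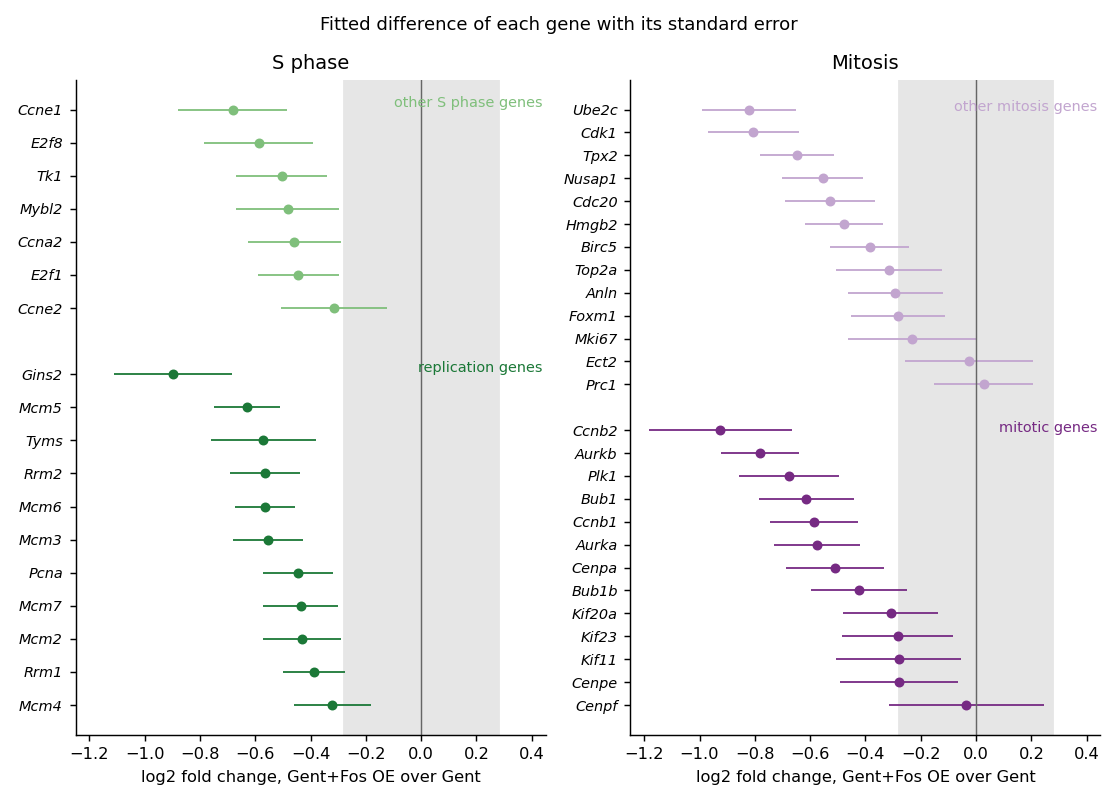
Fitted log2 fold change of Gent+Fos OE over Gent (x axis) for each of the 44 genes (rows), with its standard error as a line, in S phase genes on the left and mitosis genes on the right. The vertical line is the median of all 17155 tested genes and the grey band their interquartile range, from -0.28 to 0.28. All replication genes lie to the left of the band, between -0.90 and -0.32, whereas Cenpf (-0.04), Ect2 (-0.03) and Prc1 (0.03) lie at its centre.

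None of the 11 replication genes was called by edgeR. All 11 had a fitted difference below 0, from -0.90 to -0.32 with a median of -0.55, and in 10 of the 11 the 2 groups did not overlap, with every Gent+Fos OE library below every Gent library, beside 12.2% of all tested genes. Their summed level was 466, 507, 456 and 512 CPM in Gent+Fos OE replicates 1 to 4 and 667, 686 and 667 CPM in Gent replicates 1 to 3. The mean sum was thus 485 CPM with an SD of 28.2 (n = 4) in Gent+Fos OE and 673 CPM with an SD of 11.2 (n = 3) in Gent, a ratio of 1.39 of Gent to Gent+Fos OE.

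Within the helicase, Mcm5 (ENSMUSG00000005410, chr8:75109569-75128439 on mm10) was at 30.2, 32.9, 29.1 and 29.3 CPM in Gent+Fos OE replicates 1 to 4 and 44.8, 51.2 and 44.8 CPM in Gent replicates 1 to 3. The lowest Gent library was above the highest Gent+Fos OE library, and the log2 fold change was -0.63 ± 0.12 (SE), a level 35.3% lower. Mcm6 (ENSMUSG00000026355, chr1:128331590-128359664) was at 56.3, 54.8, 52.6 and 55.1 in Gent+Fos OE and 78.5, 84.3 and 80.1 CPM in Gent, and its log2 fold change of -0.56 ± 0.11 (SE) had the smallest standard error of the 44 members. Leaving out each library in turn moved that value between -0.59 and -0.54. Mcm3 differed by -0.55 ± 0.13 (SE) and Mcm7 by -0.44 ± 0.14 (SE), again with no overlap between the groups. Mcm2 was at 33.6, 38.8, 29.8 and 40.1 in Gent+Fos OE and 47.5, 44.04 and 52.4 CPM in Gent, which gave a log2 fold change of -0.43 ± 0.14 (SE). The smallest difference of the replication genes was that of Mcm4, at -0.32 ± 0.14 (SE). Its values were 62.5, 49.9 and 70.3 in Gent and 46.5, 53.2, 46.2 and 49.1 CPM in Gent+Fos OE, so that Gent replicate 2 lay below Gent+Fos OE replicate 2 and the groups overlapped. The difference of Mcm4 was -0.20 without Gent replicate 3 and -0.45 without Gent replicate 2. The 6 subunits are known to form 1 ring, and their fitted log2 fold changes ran from -0.63 to -0.32, with none called by edgeR and the groups of Mcm4 overlapping.

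Gins2, a subunit of the GINS complex that completes the active helicase, had the largest difference of the replication genes. Its level was 6.64, 6.001, 5.51 and 7.45 CPM in Gent+Fos OE replicates 1 to 4 and 10.03, 16.1 and 9.62 CPM in Gent replicates 1 to 3, and the log2 fold change was -0.90 ± 0.21 (SE). The groups did not overlap, but Gent replicate 2 alone was far above the other Gent libraries, and without it the difference was -0.62. In the annotation, 67.3% of the exonic bases of Gins2 are shared with Gse1 and reads that hit both genes were left out of the counts, so the level of Gins2 is uncertain.

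Pcna, the sliding clamp, had the highest level per length of all members, with 56.2 ± 3.18 RPKM (CPM per kilobase of exon, mean ± SD, n = 3) in Gent and 41.2 ± 4.63 RPKM (n = 4) in Gent+Fos OE. In CPM it was at 87.2, 98.4, 96.4 and 114 in Gent+Fos OE and 134, 143 and 128 CPM in Gent. The groups did not overlap, and the log2 fold change was -0.45 ± 0.13 (SE). RefSeq lists 2 pseudogenes of Pcna, and reads that map equally well to such copies were left out of the counts. The same holds for Tyms, Ccnb1 and Ccnb2, with 1 pseudogene each.

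The enzymes that make deoxynucleotides had differences similar to those of the helicase. Rrm1, the large subunit of ribonucleotide reductase, was at 88.5, 92.1, 81.5 and 87.9 CPM in Gent+Fos OE replicates 1 to 4 and 119, 108 and 116 CPM in Gent replicates 1 to 3. Every Gent+Fos OE library was below every Gent library, with a log2 fold change of -0.39 ± 0.11 (SE). Rrm2, the small subunit, whose level is known to follow S phase more closely, differed by -0.57 ± 0.13 (SE). Tyms, the thymidylate synthase, was at 16.7, 28.8 and 19.4 in Gent and 12.5, 15.003, 15.7 and 15.01 CPM in Gent+Fos OE. The groups were apart by little, since Gent replicate 1 was just above Gent+Fos OE replicate 3, and the log2 fold change of -0.57 ± 0.19 (SE) shrank to -0.31 without Gent replicate 2, whose value was the highest.

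**Figure D2:**
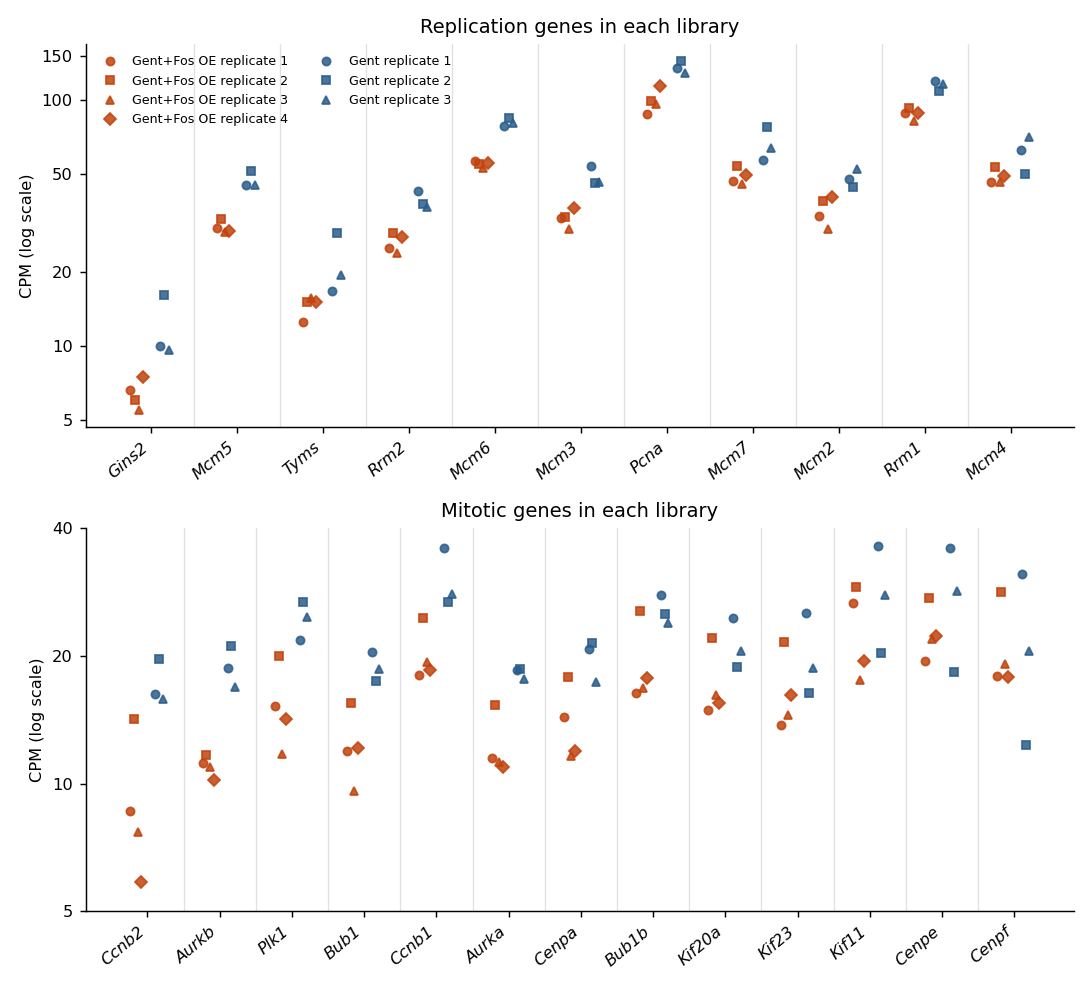
Level of each replication gene (top) and each mitotic gene (bottom) in CPM on a log axis, 1 point per library, with Gent+Fos OE in orange and Gent in blue and the replicate given by the marker. Genes are ordered by fold change from left to right. In 10 of the 11 replication genes the blue points lie above all orange ones, which is so for 6 of the 13 mitotic genes, where Gent+Fos OE replicate 2 (orange square) is the highest of its group in 13 of 13.

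The mitotic genes had a similar median difference. Their values spread more widely among genes and libraries in this fit, although the spread among genes depended on the length trend described below. All 13 had a fitted difference below 0, from -0.92 to -0.04 with a median of -0.51, and the groups were apart in 6 of the 13, beside 12.2% of all tested genes. The SD of log2 CPM within groups had a median of 0.24 over these genes and of 0.13 over the replication genes. Over all tested genes it was 0.27, and 0.21 over those within the members' range of mean CPM. Their summed level was 200, 273, 188 and 193 CPM in Gent+Fos OE replicates 1 to 4 and 333, 263 and 279 CPM in Gent replicates 1 to 3. The sums of the 2 groups overlapped, because Gent+Fos OE replicate 2 lay above Gent replicate 2. The mean sum was 213 CPM with an SD of 40.01 (n = 4) in Gent+Fos OE and 292 CPM with an SD of 36.8 (n = 3) in Gent.

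Cyclin B is the partner that activates Cdk1 at entry into mitosis. Ccnb2 (ENSMUSG00000032218, chr9:70407692-70421547) was at 8.63, 14.2, 7.69 and 5.85 CPM in Gent+Fos OE replicates 1 to 4 and 16.3, 19.7 and 15.9 CPM in Gent replicates 1 to 3. Its log2 fold change of -0.92 ± 0.26 (SE) was the lowest of the 44 members, and the Gent+Fos OE libraries differed among themselves by more than the distance from their highest to the lowest Gent library. Ccnb1 was at 18.1, 24.6, 19.3 and 18.5 in Gent+Fos OE and 35.9, 26.9 and 27.996 CPM in Gent, with a log2 fold change of -0.59 ± 0.16 (SE) and no overlap between the groups.

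The mitotic kinases Aurkb, Plk1, Aurka and Bub1 had fitted differences below 0, and none was called by edgeR. Aurkb, the kinase of the chromosomal passenger complex, was at 11.2, 11.7, 10.95 and 10.2 CPM in Gent+Fos OE replicates 1 to 4 and 18.7, 21.2 and 16.9 CPM in Gent replicates 1 to 3. Its Gent+Fos OE libraries were close together, the groups did not overlap, and the log2 fold change was -0.78 ± 0.14 (SE). Plk1, the polo-like kinase that acts from mitotic entry to cytokinesis, was at 21.8, 26.8 and 24.7 in Gent and 15.2, 19.96, 11.7 and 14.2 CPM in Gent+Fos OE, with a log2 fold change of -0.68 ± 0.18 (SE). Aurka, the kinase of spindle poles, differed by -0.57 ± 0.16 (SE), and Bub1, a kinase of the spindle checkpoint, by -0.61 ± 0.17 (SE). In both the groups were apart, whereas Bub1b, the checkpoint protein BubR1, overlapped between them with a difference of -0.42 ± 0.17 (SE).

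Among the mitotic genes, the smallest differences were those of Cenpf, Cenpe, Kif11, Kif23 and Kif20a. All but Kif20a are also the longest of the class, from 7461 to 15433 bases, and the relation to length is described below. Kif11, the motor that pushes spindle poles apart, was at 26.7, 29.03, 17.6 and 19.4 CPM in Gent+Fos OE replicates 1 to 4 and 36.2, 20.4 and 27.9 CPM in Gent replicates 1 to 3. The groups overlapped, Gent replicate 2 being below 2 Gent+Fos OE libraries, and the log2 fold change of -0.28 ± 0.23 (SE) was -0.06 without Gent replicate 1 and -0.47 without Gent replicate 2. Kif23 and Kif20a, which act in cytokinesis, differed by -0.28 ± 0.20 (SE) and -0.31 ± 0.17 (SE) and also overlapped. Without Gent replicate 1 they were at -0.09 and -0.20, and without Gent+Fos OE replicate 2 at -0.44 and -0.46. Kif20a shares 29.3% of its exonic bases with Cdc23, so its level is uncertain. Cenpa, the histone variant that marks centromeres, differed by -0.51 ± 0.18 (SE). Cenpe, a kinetochore motor, was at 36.01, 18.4 and 28.5 in Gent and 19.4, 27.4, 21.9 and 22.3 CPM in Gent+Fos OE, with a difference of -0.28 ± 0.21 (SE) that was -0.04 without Gent replicate 1 and -0.51 without Gent replicate 2. For Cenpf, a large kinetochore protein, the values were 31.1, 12.3 and 20.6 in Gent and 17.9, 28.4, 19.2 and 17.8 CPM in Gent+Fos OE. Gent replicate 2 was the lowest of all 7 libraries and Gent replicate 1 the highest, so that the log2 fold change of -0.04 ± 0.28 (SE) was 0.34 without Gent replicate 1 and -0.32 without Gent replicate 2.

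Other genes of S phase entry had differences similar to those of the replication genes. All 7 had a fitted difference below 0, with a median of -0.48, and the groups were apart in 4 of the 7, beside 50.1% and 12.2% of all tested genes. Ccne1, a cyclin E that drives entry into S phase, was at 9.18, 12.6, 8.61 and 9.27 CPM in Gent+Fos OE replicates 1 to 4 and 12.3, 19.3 and 16.2 CPM in Gent replicates 1 to 3. Gent+Fos OE replicate 2 was just above Gent replicate 1, and the log2 fold change was -0.68 ± 0.20 (SE). Ccne2, the other cyclin E, had the smallest difference of the class, -0.32 ± 0.19 (SE), with 12.9, 8.62 and 12.4 in Gent and 8.53, 9.06, 7.85 and 10.9 CPM in Gent+Fos OE. In the overlap of the groups, Gent replicate 2 was again the low Gent library, and the difference was -0.48 without it and -0.21 without Gent replicate 1. Ccna2, the cyclin A of S and G2 phase, was at 20.7, 32.7, 21.5 and 24.7 in Gent+Fos OE and 36.1, 32.2 and 34.2 CPM in Gent, with a log2 fold change of -0.46 ± 0.17 (SE).

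Of the transcription factors in this class, E2f1, an activator of replication genes and itself a target of E2F, was at 13.8, 14.3, 12.5 and 17.2 CPM in Gent+Fos OE replicates 1 to 4 and 20.1, 20.3 and 18.7 CPM in Gent replicates 1 to 3. The groups did not overlap, and the log2 fold change was -0.45 ± 0.15 (SE). E2f8, a repressor that acts late in S phase, was at 10.7, 7.37 and 10.3 in Gent and 7.002, 7.04, 6.08 and 5.03 CPM in Gent+Fos OE, with a log2 fold change of -0.59 ± 0.20 (SE) and groups that were only just apart. Mybl2 (B-Myb) differed by -0.48 ± 0.19 (SE), and by -0.26 without Gent replicate 2. Tk1, the thymidine kinase of dividing cells, was at 22.2, 25.05, 18.5 and 19.4 in Gent+Fos OE and 26.7, 36.7 and 27.2 CPM in Gent. Its difference of -0.50 ± 0.16 (SE) became -0.35 without Gent replicate 2, the highest library.

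The remaining 13 mitosis genes ranged from -0.82 to 0.03 with a median of -0.38. Ube2c, the ubiquitin-conjugating enzyme of the anaphase-promoting complex, was at 14.6, 15.9, 12.3 and 12.9 CPM in Gent+Fos OE replicates 1 to 4 and 22.01, 30.8 and 21.1 CPM in Gent replicates 1 to 3. Every Gent library was above every Gent+Fos OE library, and the log2 fold change was -0.82 ± 0.17 (SE). Of its exonic bases, 22.8% are shared with Tnnc2. Cdk1, the kinase that starts mitosis, was at 43.2, 52.9 and 36.2 in Gent and 26.7, 29.6, 23.3 and 21.2 CPM in Gent+Fos OE. The groups were well apart, and the log2 fold change of -0.81 ± 0.17 (SE) corresponded to a level 42.8% lower in Gent+Fos OE. Tpx2, which activates Aurora A on the spindle, was at 29.7, 38.9, 30.996 and 33.3 in Gent+Fos OE and 57.4, 49.3 and 49.6 CPM in Gent, with a log2 fold change of -0.65 ± 0.13 (SE). Nusap1 (a spindle protein, -0.56 ± 0.15 (SE)), Cdc20 (an activator of the anaphase-promoting complex, -0.53 ± 0.16 (SE)), Hmgb2 (a chromatin protein, -0.48 ± 0.14 (SE)) and Birc5 (survivin, -0.38 ± 0.14 (SE)) were also apart between the groups.

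Mki67 and Top2a, both widely used to mark cycling cells, were among the genes with small differences. Mki67, which encodes the antigen Ki-67, was at 88.3, 106, 79.1 and 71.04 CPM in Gent+Fos OE replicates 1 to 4 and 146, 70.4 and 86.9 CPM in Gent replicates 1 to 3. Gent replicate 2 was the lowest of the 7 libraries and Gent replicate 1 the highest, and the log2 fold change was -0.23 ± 0.23 (SE). It was 0.13 without Gent replicate 1 and -0.44 without Gent replicate 2. Top2a, the topoisomerase that untangles chromosomes, was at 141, 80.8 and 112 in Gent and 82.8, 111, 77.1 and 87.6 CPM in Gent+Fos OE. Here too Gent replicate 2 fell among the Gent+Fos OE libraries, and the log2 fold change of -0.31 ± 0.19 (SE) was -0.11 without Gent replicate 1 and -0.51 without Gent replicate 2. Foxm1, the factor that activates mitotic genes, was at 19.4, 23.5, 14.6 and 19.6 in Gent+Fos OE and 26.1, 23.01 and 21.3 CPM in Gent, with overlapping groups and a log2 fold change of -0.28 ± 0.17 (SE) that was -0.17 without Gent+Fos OE replicate 3.

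Ect2 and Prc1, which act in cytokinesis, had differences near 0. Ect2, which activates RhoA at the division plane, was at 28.5, 13.3 and 20.6 in Gent and 19.2, 24.99, 17.9 and 19.6 CPM in Gent+Fos OE. Prc1, which bundles microtubules of the central spindle, was at 24.7, 35.7, 25.9 and 24.5 in Gent+Fos OE and 31.4, 21.9 and 28.2 CPM in Gent. The log2 fold changes were -0.03 ± 0.23 (SE) and 0.03 ± 0.18 (SE), within 1 standard error of 0. Without Gent replicate 1 they were 0.27 and 0.14, and without Gent replicate 2 they were -0.27 and -0.11. Anln, the scaffold of the contractile ring, differed by -0.29 ± 0.17 (SE), and by -0.13 without Gent replicate 1 and -0.47 without Gent replicate 2.

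**Figure D3:**
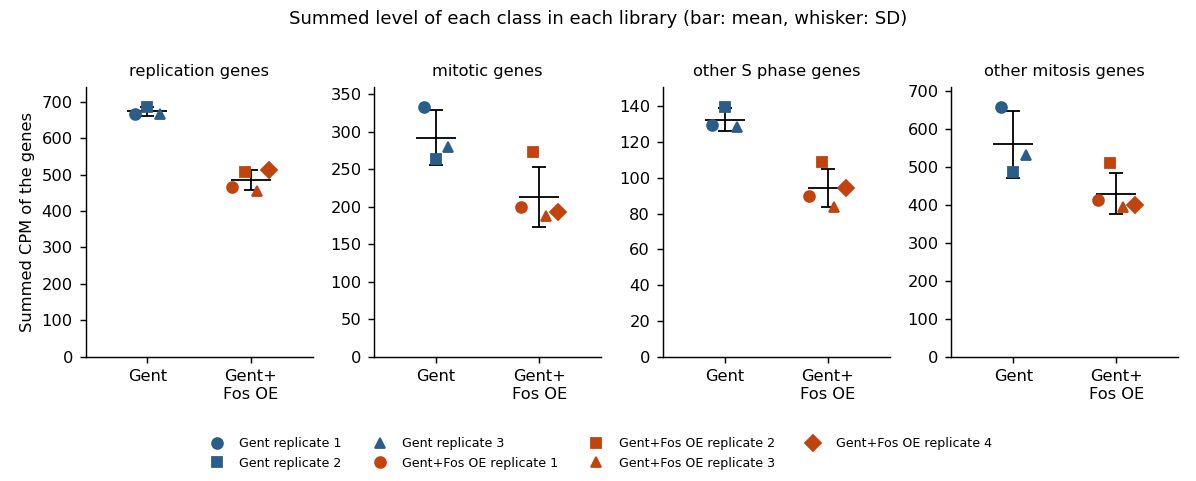
Summed CPM (y axis, from 0) of the 11 replication, 13 mitotic, 7 other S phase and 13 other mitosis genes in each library, with the group mean as a bar and the SD as whiskers. The groups are apart for the replication genes (456 to 512 CPM against 667 to 686 CPM) and for the other S phase genes, and overlap through Gent+Fos OE replicate 2 for both mitosis classes.

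The order of the libraries within a group was compared between replication and mitotic genes. Gent+Fos OE replicate 2 was the highest of its group in 13 of 13 mitotic genes and in 5 of 11 replication genes. Gent replicate 2 was the lowest Gent library in 7 and the highest in 5 of 13 mitotic genes, and the lowest in 4 and the highest in 6 of 11 replication genes. The summed level of the mitotic genes over that of the replication genes was 0.429, 0.539, 0.413 and 0.377 in Gent+Fos OE replicates 1 to 4 and 0.5001, 0.384 and 0.418 in Gent replicates 1 to 3. These ratios overlapped between the groups. The mean summed level in Gent was 1.39 times that in Gent+Fos OE for the replication genes and 1.37 times for the mitotic genes, whose sums overlapped, and the difference between the classes was not tested. The other S phase genes summed to 90.1, 109, 83.8 and 94.6 CPM against 130, 140 and 128 CPM, and the other mitosis genes to 414, 510, 395 and 400 CPM against 659, 488 and 533 CPM.

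The size of a member's difference moved with the length of its exons. Over the 44 members, the log2 fold change and the length had a Spearman's rho of 0.589, short genes being lower in Gent+Fos OE. Over the 13 mitotic genes rho was 0.879, over the 11 replication genes 0.136 and over all tested genes 0.378. Genes share libraries and are not independent, so these values describe the list and carry no test. The 11 longest members, from 6089 to 15433 bases, had a median difference of -0.28, and Gent replicate 2 was the lowest Gent library in 10 of the 11. The other 33 members, from 1531 to 5860 bases, had a median of -0.55.

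The relation was then followed with the length trend of each library removed by a loess offset, and without Gent replicate 2. With the trend removed, rho was -0.016 over the 44 members together, but 0.560 over the 13 mitotic genes, -0.627 over the 11 replication genes and 0.067 over all tested genes. The value near 0 thus joined relations of opposite sign in both classes. All 44 then had a fitted difference below 0, beside 54.7% of all tested genes. The median of the 11 longest members was then -0.47 and that of the other 33 was -0.53. The mitotic genes ran from -0.74 to -0.32 and the replication genes from -0.90 to -0.29. The wider spread among the mitotic genes was thus not kept. Mki67 moved to -0.47, Top2a to -0.52, Cenpf to -0.39 and Ect2 from -0.03 to -0.08. Kif11, Kif23 and Cenpe moved to -0.43, -0.46 and -0.46, beside a median of -0.47 over the 13 mitotic genes. Rrm1, the longest replication gene, moved from -0.39 to -0.71. Without Gent replicate 2, rho was 0.369 over the members, 0.676 over the mitotic genes and 0.264 over the replication genes. All 44 members were again below 0 and the groups were apart in 33 of the 44, beside 15.6% of all tested genes.

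**Figure D4:**
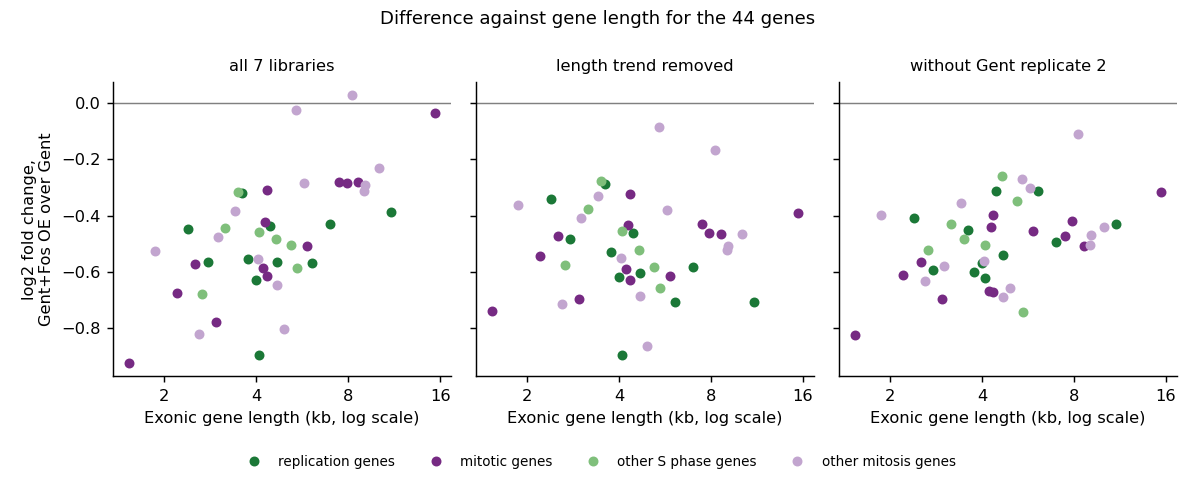
Log2 fold change of Gent+Fos OE over Gent (y axis) against exonic gene length in kilobases (x axis, log scale) for the 44 genes, coloured by class, with all 7 libraries, with the length trend of each library removed, and without Gent replicate 2. Spearman's rho over the 44 genes is 0.589 in the left panel, -0.016 in the middle panel, where the mitotic genes still slope upward (0.560) and the replication genes downward (-0.627), and 0.369 in the right panel, and points above 0 occur only in the left panel, for Prc1.

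Other fits called a few members. DESeq2, at the same limits, called 9 members lower (Mcm3, Mcm5, Mcm6, Rrm2, Gins2, Aurkb, Cdk1, Tpx2 and Ube2c), beside 1.73% of the genes it tested. With the length trend removed, edgeR called 2 (Mcm6 and Rrm1), beside 0.554% of all tested genes called lower. Without Gent replicate 2 it called 1 (Mcm6), beside 0.531%. These counts are of the contrast that chose the members, and nothing is read from them.

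Genes of the same processes that are not on the list allow the same comparison to be tested gene by gene, although they too were listed with earlier results of these data known. Of 46 other replication genes, 40 were lower in Gent+Fos OE, beside 50.1% of all tested genes, with a median log2 fold change of -0.37. None of the 46 was called by edgeR, 25 had an unadjusted p under 0.05 and were lower, beside 13.4% of all tested genes, and DESeq2 called 2 lower, beside 1.73% of the genes it tested. Among the lowest were Chaf1b, a subunit of the histone chaperone that follows the fork, at -0.73 ± 0.19 (SE) with adjusted p = 0.07802 in edgeR and Gmnn (geminin, which blocks relicensing) at -0.69 ± 0.20 (SE) with adjusted p = 0.105. In both the groups did not overlap, as with 9.705, 8.42, 7.35 and 10.7 in Gent+Fos OE and 12.3, 18.4 and 14.3 CPM in Gent for Chaf1b. The highest were Dnmt1, the maintenance DNA methyltransferase, at 0.23 ± 0.17 (SE) with adjusted p = 0.408, Cdc7, the kinase that fires origins, at 0.10 ± 0.22 (SE), and Rfc1, of the clamp loader, at 0.07 ± 0.18 (SE). All 3 overlapped between the groups, and all 3 had their lowest value in Gent replicate 2. Without that library Dnmt1, Cdc7 and Rfc1 were at 0.047, -0.14 and -0.15.

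A further 61 mitosis genes were compared in the same way. Of these, 58 were lower in Gent+Fos OE, beside 50.1% of all tested genes, with a median log2 fold change of -0.39. Of the 61, edgeR called 0, 30 had an unadjusted p under 0.05 and were lower, beside 13.4% of all tested genes, and DESeq2 called 6 lower, beside 1.73%. Cenpm, of the inner kinetochore, was at 2.31, 2.82, 2.12 and 2.85 CPM in Gent+Fos OE replicates 1 to 4 and 5.54, 7.63 and 4.13 CPM in Gent replicates 1 to 3. Its groups did not overlap, and its log2 fold change of -1.19 ± 0.25 (SE) had an adjusted p of 0.0436 in edgeR, short of the limit. Cenpn, its neighbour in the kinetochore, differed by -0.81 ± 0.21 (SE) with adjusted p = 0.08097, and Pbk, a mitotic kinase, by -0.77 ± 0.17 (SE) with adjusted p = 0.05103 in edgeR. At the other end were Smc2, of condensin (0.22 ± 0.26 (SE)), Aspm, of the spindle poles (0.14 ± 0.24 (SE)), and Bub3, of the spindle checkpoint (0.03 ± 0.13 (SE)), whose groups overlapped. Without Gent replicate 2, Smc2, Aspm and Bub3 were at -0.09, -0.09 and 0.08. A two-sided exact permutation test over the libraries gave 0.0571 for Cenpm, Cenpn, Pbk, Chaf1b and Gmnn, the smallest value that 4 against 3 libraries allow.

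Genes listed as regulators of G1, which include subunits of MuvB that also act in G2, lay on both sides of 0. Of 29 regulators of G1, 15 were lower and 14 higher, with a median log2 fold change of -0.01. None was called by edgeR, 3 were lower and 3 higher at an unadjusted p under 0.05, beside 13.4% and 11.1% of all tested genes, and DESeq2 called 1 lower, beside 1.73%. A share of 3 in 29 either way was near that of all tested genes. Ccnd1, the cyclin D that responds to growth signals, was at 153, 279.7, 179 and 149.8 CPM in Gent+Fos OE replicates 1 to 4 and 149, 61.9 and 94.4 CPM in Gent replicates 1 to 3. Every Gent+Fos OE library was above every Gent library, narrowly so for Gent+Fos OE replicate 4 and Gent replicate 1, and the log2 fold change was 0.90 ± 0.30 (SE) with an adjusted p of 0.124 in edgeR. Cdkn1c, an inhibitor of cyclin-dependent kinases, was at 40.6, 85.8 and 53.7 in Gent and 119.9, 88.2, 109 and 97.6 CPM in Gent+Fos OE, with a log2 fold change of 0.79 ± 0.23 (SE) and an adjusted p of 0.102 in edgeR. Without Gent replicate 2 that value was 1.13 and Cdkn1c was called. Exonic bases are shared with another gene for 23.4% of Ccnd1 and 30.7% of Cdkn1c. Mycn differed by 0.55 ± 0.31 (SE) with overlapping groups, and by 0.84 without Gent replicate 1. The lowest were Cdkn2c, an inhibitor of Cdk4 and Cdk6, at -0.56 ± 0.14 (SE) with adjusted p = 0.0703, Lin37, of the MuvB complex, at -0.51 ± 0.20 (SE) with adjusted p = 0.169, and Cdk4, the partner of cyclin D, at -0.47 ± 0.18 (SE) with adjusted p = 0.153 in edgeR. Cdk4 was at 183, 301 and 186 in Gent and 153, 165, 160.1 and 168 CPM in Gent+Fos OE, and its difference was -0.20 without Gent replicate 2, the highest library. The difference of Lin37 was -0.23 without the same library.

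**Figure D5:**
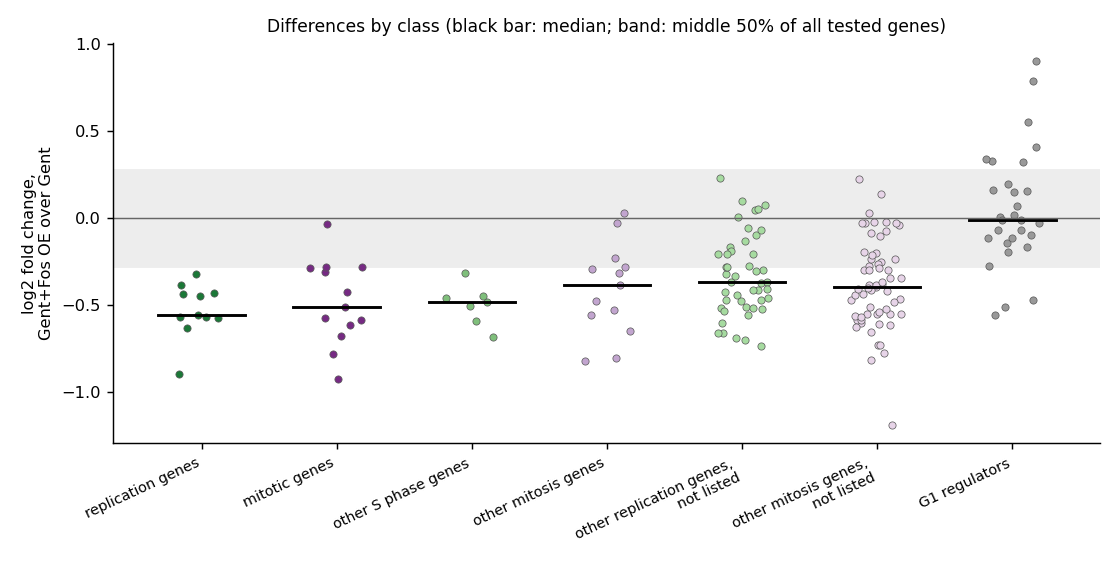
Log2 fold change of Gent+Fos OE over Gent (y axis) of each gene in the 4 member classes, in 46 other replication genes, 61 other mitosis genes and 29 G1 regulators (x axis), with the class median as a black bar and the interquartile range of all tested genes, from -0.28 to 0.28, as a grey band. The medians of the member classes run from -0.55 to -0.38, those of the other replication and mitosis genes are -0.37 and -0.39, and that of the G1 regulators is -0.01.

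Markers of several cell types were measured beside these genes. Of 10 macrophage markers, 9 had a fitted difference below 0, beside 50.1% of all tested genes, and none was called by edgeR. In 7 of the 10 every Gent+Fos OE library was below every Gent library, beside 12.2% of all tested genes. The summed level of the 10 was 1430, 1036, 1238 and 1697 CPM in Gent+Fos OE replicates 1 to 4 and 2242, 2281 and 1858 CPM in Gent replicates 1 to 3, with no overlap. Of 6 melanocyte markers, 6 had a fitted difference below 0, beside 50.1% of all tested genes. In 5 of the 6 every Gent+Fos OE library was below every Gent library, beside 12.2%, whereas Mitf, at -0.17, overlapped between the groups. Their sum ran from 45.7 to 50.9 CPM in Gent+Fos OE and from 87.6 to 124 CPM in Gent. Tyrp1 and Dct, 2 of the 6, were called by edgeR, beside 0.414% of all tested genes. The mesenchyme sum overlapped between the groups, from 7167 to 10710 CPM in Gent+Fos OE and from 8828 to 12804 CPM in Gent. So did the sums of hair cell markers (653 to 841 against 584 to 722 CPM), supporting cell markers (1176 to 1265 against 1056 to 1369 CPM), endothelium (135 to 183 against 149 to 212 CPM), Schwann cells and glia (325 to 358 against 319 to 370 CPM) and erythroid cells (1.59 to 4.28 against 2.54 to 3.696 CPM). The hair cell marker Ocm, the endothelial marker Cldn5 and the erythroid markers Hba-a1 and Hbb-bt were at 0 in at least 1 library. Gent+Fos OE replicate 2, which had the highest sum of mitotic genes in its group, had the lowest macrophage, mesenchyme, endothelium, melanocyte and erythroid sums and the highest hair cell and supporting cell sums of that group. The part of each cell type in the differences of the 44 genes was not tested.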

How the data were processed

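Bulk RNA sequencing libraries of P2 mouse utricles (4 Gent+Fos OE, 3 Gent) were grouped by their sample labels. The authors deposited raw read counts per gene, not normalized. Per the labels, reads were trimmed with Trim Galore 0.6.10 and aligned with HISAT2 2.2.1. Per the file headers, featureCounts 2.0.6 counted on an mm10 annotation, unstranded, with both reads of a pair counted separately and with reads of several places or genes left out. The methods name mm39 instead, and 3 replicates per condition, whereas the labels list 4 and 3. Symbols were taken where GENCODE vM39 and RefSeq agreed (24665 genes). Of the listed genes, 1 (Lin54) was not matched.

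Genes kept by filterByExpr were normalized by TMM and compared with edgeR 4.0.16 (R 4.3.3), by its quasi-likelihood F-test without covariates, and p-values were adjusted over all 17155 genes (Benjamini-Hochberg). Calls needed an absolute log2 fold change over 0.25 at an adjusted p under 0.01. RPKM used the exonic lengths in the files. The fit was tested on simulated data. Alternatives were DESeq2 1.42.0, limma 3.58.1 (voom), RLE and upper quartile normalization, 2 filters, removal of each library's length trend (loess, span 0.3), the replicate number as a block with the trend kept or removed, and fits that left out 1 library each. Counts of lower members, and of members apart without Gent replicate 2, were added after the data were seen. Promoter windows came from RefSeq (GRCm38.p6).

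Members, lists and tests were chosen with earlier results of these data known. The classes follow the roles of the products. Values per library are given for Mki67, Top2a, Pcna, Cdk1, Ccnb1, Ccne1, E2f1, Foxm1 and the 3 highest and 3 lowest log2 fold changes of each class, and for Mcm6, which was chosen after its values were seen, and from the other lists the 3 highest and 3 lowest with a mean of at least 1 CPM are named. Some genes these rules name are not reported here. Same-numbered libraries did not deviate together (correlations 0.0643, -0.038 and 0.0317), so replicate numbers do not pair them.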

Additional observations from a re-analysis of the deposited data

Results flagged for a closer look

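Values of Gent+Fos OE replicate 2 stood apart from the other 3 libraries of its group in 9 of 70 checks made on groups of 4 libraries, by Dixon's criterion, which sets the gap to the nearest library against the range of the group. Chance alone flags about 1 in 20 groups. The checks were not independent, since the genes share the same libraries and the sums of the mitotic and of the other mitosis genes contain single genes that stood apart, so the number of such values is not set against that rate. All 9 were high values, and all but Ccne1, a gene of S phase entry, concerned mitosis genes.

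Among single genes, Aurka was at 15.3 CPM in this library and between 10.9 and 11.5 CPM in the other 3. Cenpf was at 28.4 CPM against 17.8 to 19.2 CPM, and Bub1b at 25.6 CPM against 16.3 to 17.8 CPM. Ccne1 was at 12.6 CPM against 8.61 to 9.27 CPM, Birc5 at 12.9 CPM against 10.6 to 10.8 CPM, and Prc1 at 35.7 CPM against 24.5 to 25.9 CPM. The summed levels followed, with 273 CPM of the 13 mitotic genes against 188 to 200 CPM, 510 CPM of the 13 other mitosis genes against 395 to 414 CPM, and 1317 CPM of the 61 mitosis genes outside the list against 1104 to 1131 CPM. The summed replication genes of the same library, at 507 CPM, lay within the range of the other 3. Without this library the median log2 fold change of the mitotic genes was -0.65.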

How the results depend on the processing

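The median log2 fold change was -0.55 for the replication genes (-0.60 to -0.49 over the 16 alternative fits), -0.51 for the mitotic genes (-0.65 to -0.43) and -0.48 for all 44 (-0.56 to -0.44). Between 40 and 44 members were lower in each fit, the lowest count being without Gent replicate 1. Counts of calls depended on the fit: 71 genes were called over all genes, 600 with DESeq2, 204 with no filter, 130 with the length trend removed, and 5 to 138 when 1 library was left out (5 without Gent+Fos OE replicate 3, 138 without Gent replicate 2). Members called were 9 with DESeq2, 2 with the length trend removed and 0 to 1 without 1 library. DESeq2 called 2 other replication genes, 6 other mitosis genes and 1 G1 regulator, and leaving out 1 library 0 to 1 G1 regulators. The causes were not tested.

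With the replicate block, edgeR called 0 genes, 0 of them members, and 48 with the length trend also removed. The numbers do not pair the libraries, and the block costs residual degrees of freedom.

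Leaving out 1 library gave medians of -0.41 to -0.29 for other replication genes and -0.058 to 0.082 for G1 regulators. Small differences outside the list changed sign. With the length trend removed Rfc1 was at -0.014, Bub3 at -0.137 and Aspm at -0.152, and with the block added at -0.024, -0.11 and -0.135. Bub3 was at -0.0061 with upper quartile normalization. Over the fits without 1 library, Rfc1 ran from -0.146 to 0.223, Cdc7 from -0.144 to 0.27, Bub3 from -0.036 to 0.076, Aspm from -0.088 to 0.39 and Smc2 from -0.088 to 0.524. The lowest of these was without Gent replicate 2, except for Bub3, where it was without Gent replicate 1. The lowest count of a member in any library was 141, in E2f8, so counting error weighs most on the least abundant members.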
